A study of Homo sapiens with 42 samples.

Results

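Genes that build, cut and sense the extracellular matrix were followed through every group of the study. They were selected as protein-coding genes with symbols of collagen chains (COL, number, A, number), laminin chains (LAMA, LAMB, LAMC), matrix metalloproteinases (MMP), ADAMTS proteases and TIMP inhibitors, together with FN1, SPARC, NID1, NID2, HSPG2, DDR1 and DDR2. They were chosen by a mean level of 0.5 TPM or more over the 12 control libraries of the HEK293T experiments. TPM is a unit that scales reads to transcript length and library size. Of 108 genes with such symbols 68 met the condition, out of 34318 genes measured, and they comprise 8 fibrillar collagens, 7 network-forming collagens, 14 other collagens, 11 laminin chains, 5 glycoproteins, 7 MMPs, 11 ADAMTS proteases, 3 TIMPs and 2 collagen receptors. The control level chose the genes, so it is given as a description. Just inside the limit lay COL6A3 (0.556 TPM), ADAMTS5 (0.703) and LAMB4 (0.708), and just outside lay ADAMTS8 (0.475), COL4A3 (0.354) and ADAMTS4 (0.322). A mean over all 30 HEK293T libraries chose the same 68 genes.

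The study sequenced poly(A) RNA of 14 groups with 3 libraries each, 42 in all, and asked how mRNA levels respond when RNA polymerase III (Pol III) is inhibited. The enzyme transcribes tRNAs and other short noncoding RNAs, POLR3G and POLR3GL encode alternative versions of one of its subunits, and MAF1 encodes a repressor of the enzyme. The embryonic kidney line HEK293T received either an ASO (antisense oligonucleotide) to POLR3G or a scrambled one, at 200 nM for 48 h. A POLR3G siRNA was set against a control siRNA, both at 200 nM for 48 h, and the POLR3GL siRNAs named siE4, siE6 and siE8 were set against 1 shared control siRNA group, all at 25 nM for 48 h. These oligonucleotides were transfected with a lipid reagent, and the fourth HEK293T experiment compared cells transfected for 48 h to overexpress MAF1 with cells overexpressing eGFP. THP-1, a human monocytic leukaemia line, was given DMSO, or ML-60218, which inhibits Pol III, at 25 uM for 4 h, or cycloheximide (CHX), which blocks translation, at 10 ug/ml for 4.5 h, or both agents. The labels do not say that the 3 libraries of a group came from separate cultures, and the spread behind each p-value is that of these libraries only and may be technical.

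As background, the matrix around cells is built from fibrillar collagens, which assemble into fibres, and from the basement membrane, in which networks of laminin trimers and collagen IV are joined by nidogens and the heparan sulfate proteoglycan perlecan. MMPs and ADAMTS proteases cut these proteins, TIMPs inhibit the proteases, and cells sense collagen through integrins and through the receptor tyrosine kinases DDR1 and DDR2. Kidney epithelium rests on a basement membrane, whereas monocytes migrate across basement membranes and secrete proteases and their inhibitors.

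Transcripts of laminin chains and of collagen IV chains are products of genes whose levels moved together or apart in the comparisons below, and upstream stretches of 3 of them are shown for that reason. They are from RefSeq on GRCh38.p14, end 1 base before the RefSeq transcript start or before the outermost exon, hold no exon of GENCODE release 29, and are written 5′ to 3′ on the gene's strand with matches of the searched motifs in capitals. The stretch for COL4A5 lies in the interval between the divergent genes COL4A5 and COL4A6 (chrX:108439588-108439837, plus strand). Those for LAMC1 (chr1:183023170-183023419, plus strand) and LAMB1 (chr7:108003256-108003411, minus strand) belong to the gamma1 and beta1 chains, which assemble into the same laminin trimers.
COL4A5: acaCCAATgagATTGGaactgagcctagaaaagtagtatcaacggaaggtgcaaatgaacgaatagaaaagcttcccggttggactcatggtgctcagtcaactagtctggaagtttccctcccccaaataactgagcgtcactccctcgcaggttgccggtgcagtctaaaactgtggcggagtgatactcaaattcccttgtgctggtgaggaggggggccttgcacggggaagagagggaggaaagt
LAMC1: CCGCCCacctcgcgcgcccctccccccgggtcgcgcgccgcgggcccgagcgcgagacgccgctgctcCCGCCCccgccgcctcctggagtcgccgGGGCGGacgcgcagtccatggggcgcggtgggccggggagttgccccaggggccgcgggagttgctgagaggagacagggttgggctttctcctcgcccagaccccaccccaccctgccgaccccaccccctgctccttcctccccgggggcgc
LAMB1: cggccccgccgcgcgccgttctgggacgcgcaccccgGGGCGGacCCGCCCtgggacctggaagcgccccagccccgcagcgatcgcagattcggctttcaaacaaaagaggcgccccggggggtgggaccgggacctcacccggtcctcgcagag
The capitals mark the GC box (GGGCGG) in LAMC1 and LAMB1 and the CCAAT box (CCAAT) in COL4A5, found on either strand. The LAMC1 stretch was 79.6% G or C with 3 GC boxes, the LAMB1 stretch 75.0% with 2, and the COL4A5 stretch 51.2% with 2 CCAAT boxes and no GC box. Promoter windows of 250 bases before to 50 after the start were matched for 48 of the 68 genes (64 windows), and a GC box stood in 60.9% of them and in 45.0% of all 35116 windows of the table. The CCAAT box stood in 29.7% of the genes' windows and 34.6% of all, the TATA box (TATAAA) in 10.9% and 11.5%, the AP-1 site (TGANTCA) in 4.69% and 7.71%, while the TEAD site (GGAATG) stood in 5 of the 64 windows and in 4928 of the 35116. No searched motif lies within another, and a match is a description of the letters only.

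The libraries held 32705684 to 52568088 estimated reads. Of 7 HEK293T markers 6 stood at 0.5 TPM or more in the HEK293T controls, with SOX11 at 0.204. All 8 THP-1 markers did so in DMSO. In the HEK293T controls the THP-1 markers LYZ and CD36 were at 2.48 and 0.527 TPM. The others lay between 0.0021 (PTPRC) and 0.356 (SPI1). The mean level of POLR3G went from 14.7 ± 2.31 to 8.83 ± 1.24 TPM (SD, n = 3) with the ASO and from 21.3 ± 2.85 to 12.7 ± 0.905 with its siRNA, and that of POLR3GL from 35.4 ± 2.44 to 2.57 to 3.14 with siE4, siE6 and siE8. The mean level of the other paralog was lower in each case as well. POLR3G went from 21.8 TPM in the 25 nM control to 11.1 with siE4, 13.5 with siE6 and 14.4 with siE8. POLR3GL went from 33.1 to 21.0 TPM with the POLR3G siRNA and from 27.8 to 22.5 with the POLR3G ASO. MAF1 was at 3818 ± 230 TPM when overexpressed against 42.8 ± 1.32 with eGFP, and at 11.02 ± 0.764 with the POLR3G siRNA against 55.2 ± 3.53 in its control. The libraries of the POLR3G ASO stood apart from all others in the summed reads of olfactory receptor genes, at 582 to 629 CPM (counts scaled to library size) against 184 to 196 with the scrambled ASO. The 25 nM control libraries differed more among themselves than other control groups, with a chi-square per gene between pairs of 18.0 to 32.0, against 4.2 to 5.8 in the ASO and 200 nM groups, and mitochondrial reads made up 2.75% to 4.995% of theirs. The corresponding shares were 5.48% to 6.20% with siE4, 4.37% to 6.22% with siE6 and 3.48% to 4.41% with siE8. Leaving out any 1 library gave 35 to 41 called genes of the 68 with siE4, 45 to 49 with siE6 and 51 to 56 with siE8, and the part of these differences in the results was not tested.

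In HEK293T controls the most abundant transcripts per length were those of SPARC, a collagen-binding matricellular protein (101 TPM, 76.2 to 141 over the 12 libraries), and of LAMC1, the laminin gamma1 chain (96.7 TPM, 70.3 to 125). NID1, which encodes nidogen-1 (73.5 TPM), TIMP1 (51.8), the laminin beta2 chain gene LAMB2 (51.1) and COL6A1 of the collagen VI microfibrils (47.9) followed. Their ranges over the control libraries overlapped with those of the next gene in this order, and the controls of the 4 experiments differed. LAMC1, for example, stood at 70.3, 73.2 and 71.6 TPM with the scrambled ASO and at 122, 122 and 125 with the 200 nM control siRNA. In all, 26 of the 68 genes had a mean of 10 TPM or more and 5 were under 1 TPM. COL1A1, the alpha1 chain of collagen I, was at 20.4 TPM, while its partner chain COL1A2, not among the 68, was at 0.014 TPM. The main transcript of COL1A1, the one with the highest TPM in these controls, was 549 bases long, and that of LAMB2 1021. Their summed levels count such short transcripts and are not levels of full-length chain mRNA alone.

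**Figure D1:**
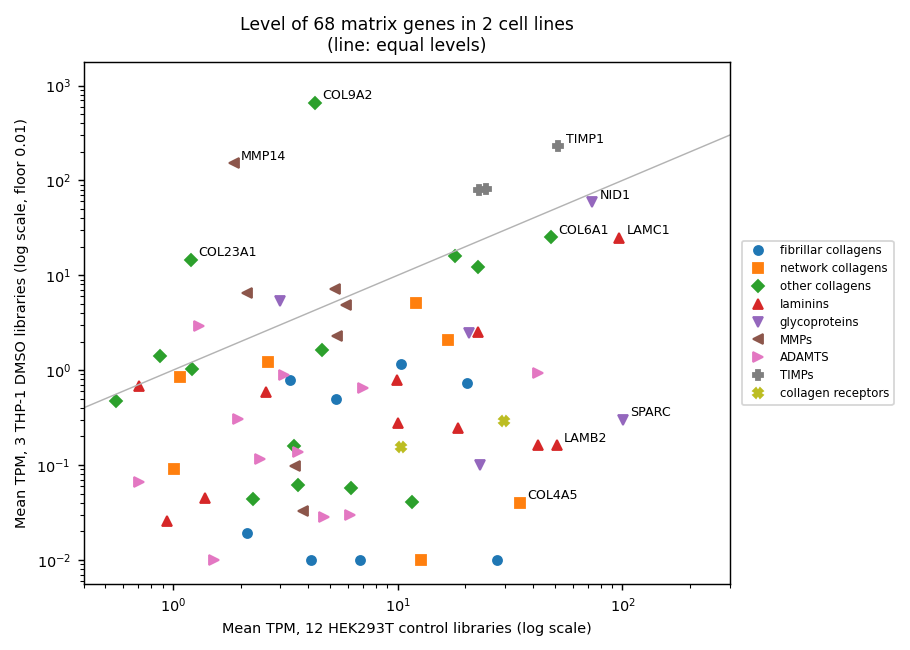
Each point is 1 of the 68 genes, with its mean TPM over the 12 HEK293T control libraries on the x axis and over the 3 THP-1 DMSO libraries on the y axis (both log scales, values under 0.01 drawn at 0.01), and symbols give the role. COL9A2 (662 TPM) and MMP14 (151 TPM) lie far above the line of equal levels, and SPARC, LAMB2 and COL4A5 lie far below it.

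The THP-1 repertoire had a different order. COL9A2, a chain of the fibril-associated collagen IX, stood at 662 ± 3.53 TPM in DMSO (SD, n = 3) and at 4.27 in HEK293T controls. TIMP1 (228 ± 4.23 TPM) and the membrane-type protease gene MMP14 (151 ± 5.28) came next, then TIMP2 (80.9 ± 2.22) and TIMP3 (80.1 ± 2.07), whose SDs overlap. NID1 stood at 58.7 ± 1.45 TPM, close to its HEK293T level, whereas SPARC (0.298) and LAMB1 (0.161) were near 0. In DMSO 35 of the 68 genes were at 0.5 TPM or more. The lines were grown and treated separately and their difference was not tested.

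In each of the 5 knockdown comparisons in HEK293T, more of the 68 genes fell than rose. Changes are given as log2 fold changes ± SE from edgeR's quasi-likelihood test on estimated read counts, n = 3 against 3 libraries, and a gene is said to have risen or fallen where its Benjamini-Hochberg adjusted p over all genes tested was under 0.05. With the POLR3G ASO 49 genes fell and 9 rose, where 34.1% of all genes tested fell and 34.4% rose. With the POLR3G siRNA 50 fell and 8 rose, against 38.1% and 36.8% of all genes. With siE4 33 fell and 11 rose (28.7% and 26.2% of all genes), with siE6 45 fell and 3 rose (31.8% and 31.2%), and with siE8 56 fell and 1 rose (28.6% and 29.1%). The median log2 change of the 68 genes was -0.48, -0.57, -0.24, -0.57 and -0.63 in that order, while that of all genes tested lay between -0.02 and 0.00. The siE4, siE6 and siE8 comparisons share their control libraries, so their counts are not independent of each other. Counts by role below are to be read against the shares of all genes given here.

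The matrix genes are long as a group, though not each of them. Main transcripts in the HEK293T controls had 549 bases for COL1A1, 560 for MMP14, 749 for COL13A1, 843 for COL9A2, 1021 for LAMB2 and 1061 for LAMA4. The main transcripts of the 68 had a median length of 5516.5 bases against 2623 in 13498 protein-coding genes at the same level. Among 1958 of those coding genes with a main transcript at least as long as the median of the 68, the share that fell was 54.1% with the ASO, 50.03% with the POLR3G siRNA, 31.7% with siE4, 44.4% with siE6 and 45.5% with siE8. Among all of those coding genes it was 42.2%, 40.9%, 31.4%, 33.6% and 31.1%, and the difference from the long ones was not tested. The shares among the 68 were 72.1%, 73.5%, 48.5%, 66.2% and 82.4%. This comparison with long genes was added after the data were seen. When the fit was offset for the effective length of each gene per library, 41, 49, 28, 40 and 46 of the 68 fell, against 30.3%, 35.2%, 25.2%, 29.2% and 25.0% of all genes. The median log2 change of the 68 was then -0.391, -0.579, -0.185, -0.441 and -0.621 in that order. The part of transcript length in the changes was not tested further.

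**Figure D2:**
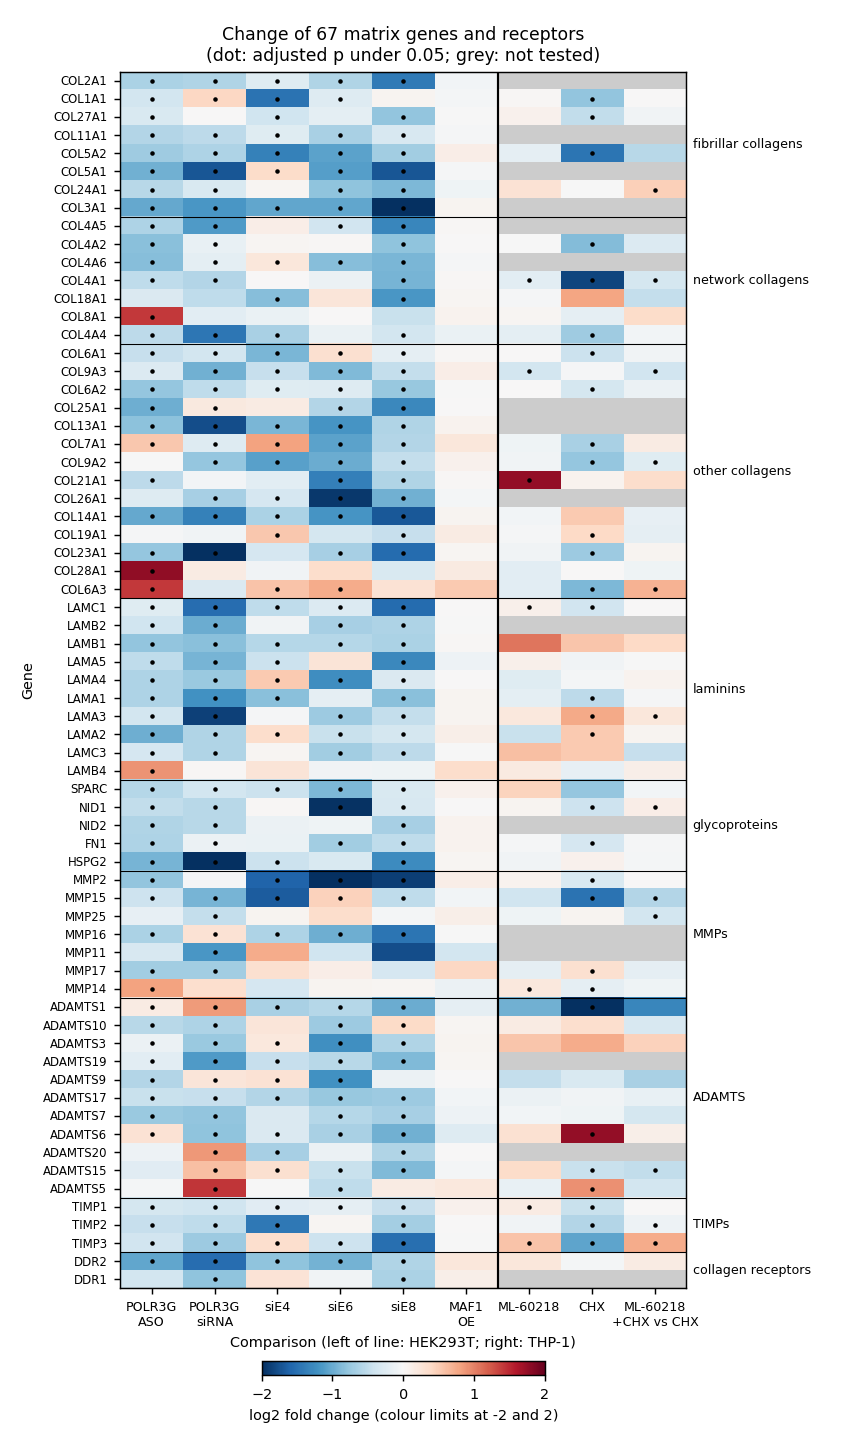
Rows are 67 of the 68 genes by role and columns the 9 comparisons with their own control, colour gives the log2 fold change, a black dot marks an adjusted p under 0.05 and grey marks genes not tested. Blue dominates the 5 knockdown columns, and the MAF1 column has no dot. The ASO column holds rises of genes with low levels in separate roles (COL8A1 in network collagens, COL28A1 and COL6A3 in other collagens, LAMB4 in laminins).

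The summed level of the 68 genes was lower with every knockdown than in its control, as values with no test. It was 834, 837 and 834 TPM in the scrambled ASO libraries and 756, 723 and 712 with the POLR3G ASO. It was 1138, 1134 and 1140 TPM with the 200 nM control siRNA and 731, 722 and 787 with the POLR3G siRNA. No library of either knockdown overlapped with its control. The 25 nM control siRNA libraries stood at 1197, 1179 and 1089 TPM, above all 9 libraries of siE4 (752 to 894), siE6 (670 to 788) and siE8 (701 to 785).

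**Figure D3:**
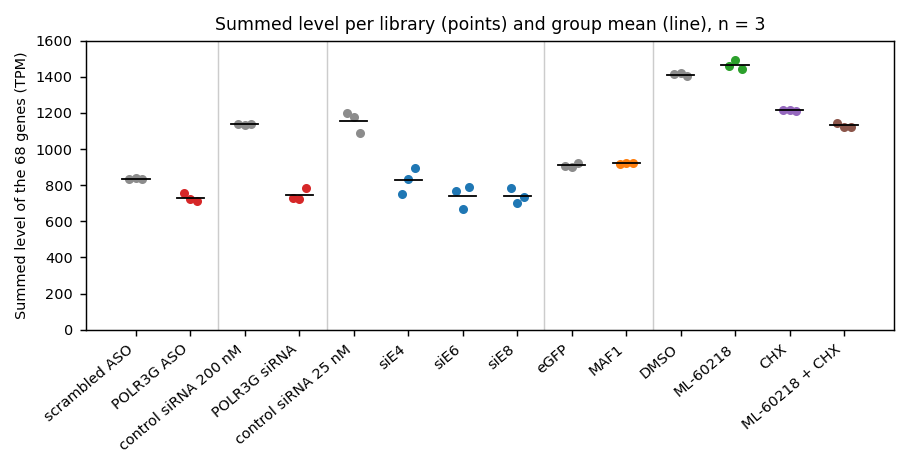
Points are the summed TPM of the 68 genes in each of the 42 libraries, lines are group means, and vertical lines separate the 5 experiments. Each knockdown group lies below its control (for example 747 ± 34.8 TPM with the POLR3G siRNA against 1137 ± 3.18, SD, n = 3), and the MAF1 and eGFP groups lie together at 920 ± 4.15 and 911 ± 12.7 TPM.

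Among laminin chains, LAMC1 (ENSG00000135862, chromosome 1, 183023460 to 183145592, plus strand, GRCh38) had the highest level and fell in all 5 knockdowns. Its level was 122, 122 and 125 TPM with the 200 nM control siRNA and 45.8, 46.4 and 50.8 with the POLR3G siRNA. These groups did not overlap, and the change was 2.86-fold (log2 -1.52 ± 0.018, adjusted p = 7.78e-11). With the POLR3G ASO it was 70.2, 67.6 and 65.9 TPM against 70.3, 73.2 and 71.6, groups that lie next to each other without overlap (log2 -0.24 ± 0.034, adjusted p = 2.19e-04). In the POLR3GL experiment LAMC1 went from 120, 113 and 108 TPM in the control to 59.3, 66.5 and 76.7 with siE4, 87.6, 74.5 and 86.4 with siE6, and 52.3, 43.0 and 48.0 with siE8. All 9 siRNA libraries lay below the control, and log2 changes were -0.51 ± 0.074 with siE4, -0.28 ± 0.073 with siE6 and -1.54 ± 0.075 with siE8. In the direct test LAMC1 was 2.41-fold higher with siE6 than with siE8 (log2 1.27 ± 0.075, adjusted p = 8.25e-09).

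LAMB1 (ENSG00000091136, chromosome 7, 107923799 to 108003255, minus strand), the beta1 chain that pairs with gamma1, also fell in all 5 and by more equal amounts. Its levels were 34.1, 33.2 and 36.0 TPM with the scrambled ASO and 28.98, 25.03 and 26.06 with the POLR3G ASO (log2 -0.79 ± 0.044). With the POLR3G siRNA it stood at 25.9, 23.9 and 28.6 TPM against 48.0, 46.6 and 48.2 (log2 -0.84 ± 0.032). With siE4, siE6 and siE8 the log2 changes were -0.57 ± 0.065, -0.57 ± 0.065 and -0.63 ± 0.065. No knockdown library of LAMB1 overlapped with its control group. The upstream stretches of LAMB1 and LAMC1 shown above share the GC box and a high G and C content. A GC box stood in 45.0% of all promoter windows, and a link of these letters to the changes was not tested. The difference between the changes of LAMB1 and LAMC1 was not tested.

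The alpha chains, which carry the parts of laminin that bind receptors, differed between agents. LAMA3 was at 12.0, 12.2 and 11.4 TPM in the 200 nM control and at 3.16, 3.495 and 2.917 with the POLR3G siRNA, 3.66-fold lower with no overlap (log2 -1.87 ± 0.042, adjusted p = 1.40e-09). LAMA5, the alpha5 chain of kidney basement membranes, fell 1.91-fold with the POLR3G siRNA (log2 -0.93 ± 0.057) and 2.45-fold with siE8 (log2 -1.29 ± 0.13), and with siE6 it was at log2 0.26 ± 0.13, which did not pass. LAMA1 fell with both POLR3G agents, siE4 and siE8. Over the 11 laminin genes, 9 fell with the ASO, 10 with the POLR3G siRNA, 5 with siE4, 8 with siE6 and 10 with siE8. For LAMA3, LAMA5 and LAMB2 under the ASO the fitted counts fell (log2 -0.37, -0.50 and -0.39) while the mean TPM rose slightly, as with LAMB2 from 42.8 to 46.2 TPM. With the length offset none of these 3 calls remained (adjusted p = 0.383, 0.258 and 0.191).

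LAMA4, the alpha4 chain of vessel walls, shows how far counts and length-scaled levels can part. Its fitted counts rose 1.43-fold with siE4 (log2 0.52 ± 0.056) and fell 2.35-fold with siE6 (log2 -1.23 ± 0.059). Its level was 21.3, 21.1 and 21.6 TPM in the control, 20.0, 20.8 and 20.7 with siE4 and 18.3, 16.5 and 20.4 with siE6. With the length offset the siE6 value was log2 -0.03 (adjusted p = 0.751) and the siE4 value 0.15 (adjusted p = 0.0651), so neither call remained. LAMB4, a laminin chain under 1 TPM in the controls, rose with the ASO by log2 0.90 ± 0.16.

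Of the 5 glycoproteins, 5 fell with the ASO, 5 with the POLR3G siRNA, 2 with siE4, 3 with siE6 and 5 with siE8, and none rose. The shares of all genes that fell were 34.1%, 38.1%, 28.7%, 31.8% and 28.6% in that order. SPARC (ENSG00000113140, chromosome 5, 151661096 to 151687165, minus strand) was at 79.0, 79.3 and 76.2 TPM with the scrambled ASO and 62.3, 59.8 and 56.2 with the POLR3G ASO. The control siRNA at 25 nM gave 127, 141 and 129 TPM, and siE6 gave 63.8, 54.8 and 66.8, 1.86-fold lower by the test (log2 -0.89 ± 0.054, adjusted p = 1.23e-08). SPARC libraries overlapped with their control in none of the 5 comparisons, and the other log2 changes were -0.57 (ASO), -0.37 (POLR3G siRNA), -0.43 (siE4) and -0.30 (siE8).

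NID1 (ENSG00000116962, chromosome 1, 235975830 to 236065162, minus strand) set siE6 apart from the other POLR3GL siRNAs. The control stood at 91.8, 85.3 and 81.8 TPM, siE4 at 69.7, 78.3 and 83.2, siE6 at 19.9, 17.2 and 20.4, and siE8 at 72.5, 66.2 and 67.0. Only the siE4 libraries overlapped with the control. NID1 was 3.92-fold lower with siE6 (log2 -1.97 ± 0.060, adjusted p = 5.28e-11), lower by log2 -0.33 with siE8 and at log2 0.02 ± 0.057 with siE4, which did not pass. In direct tests it was 3.98-fold higher with siE4 than with siE6 (log2 1.99 ± 0.060) and 3.13-fold lower with siE6 than with siE8 (log2 -1.65 ± 0.060). Its paralog NID2 fell with the ASO, the POLR3G siRNA and siE8 (log2 -0.61, -0.55 and -0.66) and was at -0.08 with siE6, which did not pass.

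HSPG2 (ENSG00000142798, chromosome 1, 21822245 to 21937297, minus strand) encodes perlecan, one of the longest members. It was at 4.04, 3.14 and 3.34 TPM in the 200 nM control and 0.485, 0.466 and 1.005 with the POLR3G siRNA, with no overlap. The change was 4.79-fold (log2 -2.26 ± 0.13, adjusted p = 3.91e-07), and it was smaller with the ASO (log2 -0.93 ± 0.082). The difference between the ASO and siRNA responses was log2 1.30 ± 0.16 (adjusted p = 8.68e-06). With the length offset HSPG2 was at log2 -0.56 with the ASO and remained called. FN1, fibronectin, fell with the ASO (log2 -0.62 ± 0.042, and -0.27 with the length offset), siE6 (-0.70 ± 0.084) and siE8 (-0.50 ± 0.084). Its fall with the POLR3G siRNA was 1.08-fold (log2 -0.11 ± 0.035, adjusted p = 0.0181), a call lost in 5 alternatives beside the stricter threshold (adjusted p = 0.0508 to 0.137), among them the fits without POLR3G siRNA replicate 1 or 2 or control replicate 1.

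**Figure D4:**
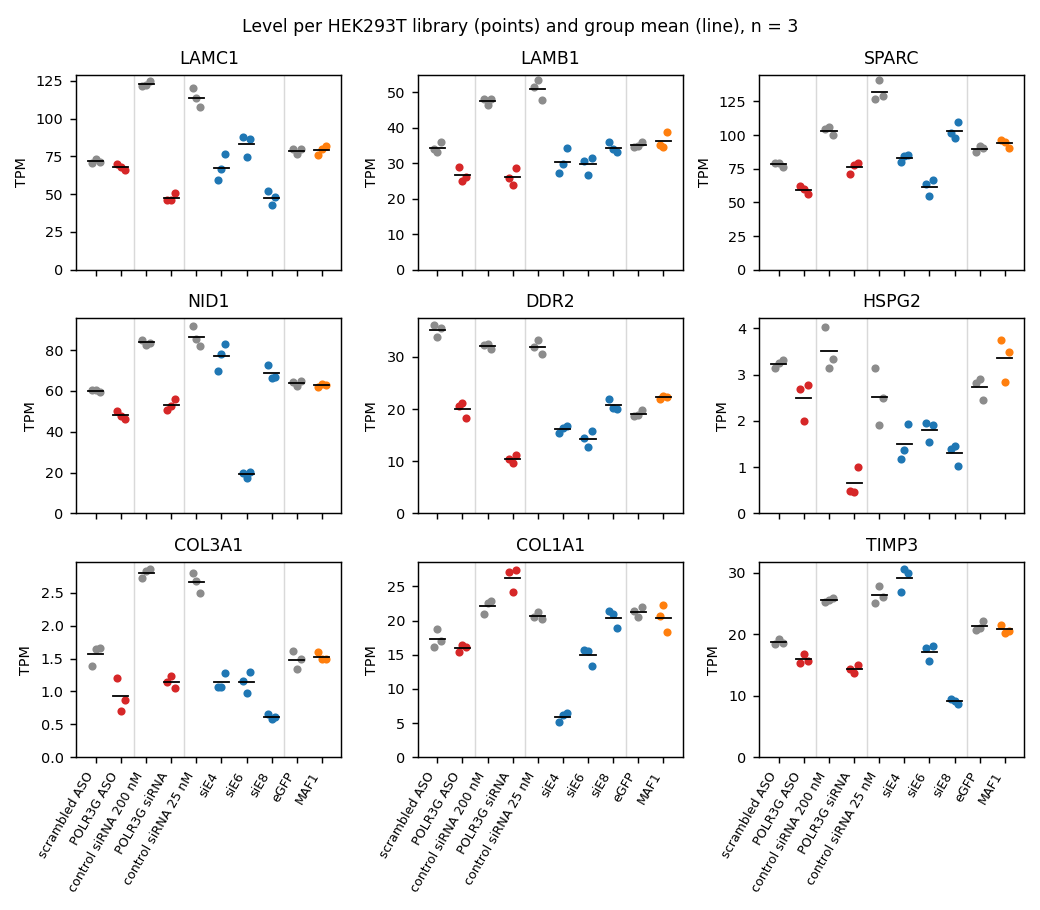
Each panel gives 1 gene, with TPM on the y axis from 0, a point for each of the 30 HEK293T libraries and a line at each group mean of 3 libraries. NID1 is lowest with siE6 (17.2 to 20.4 TPM), LAMC1 with the POLR3G siRNA and siE8, COL1A1 with siE4 (5.15 to 6.48 TPM) and TIMP3 with siE8 (8.71 to 9.51 TPM).

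All 8 fibrillar collagen genes fell with the ASO, 6 with the POLR3G siRNA, 6 with siE4, 7 with siE6 and 7 with siE8. With the length offset the ASO calls of COL27A1 (adjusted p = 0.1495, mean level 11.3 TPM in the control and 11.7 with the ASO) and COL24A1 (0.235) were lost. COL3A1 (ENSG00000168542, chromosome 2, 188974320 to 189012746, plus strand), the chain of collagen III, fell at least 2.03-fold in each of the 5. It was at 2.72, 2.83 and 2.86 TPM in the 200 nM control and 1.14, 1.24 and 1.05 with the POLR3G siRNA. In the POLR3GL experiment the control stood at 2.80, 2.68 and 2.49 TPM and siE8 at 0.654, 0.578 and 0.613, 4.44-fold lower (log2 -2.15 ± 0.11, adjusted p = 3.61e-09). No knockdown library overlapped with its control. The fall was larger with siE8 than with siE6 in the direct test (log2 1.11 ± 0.11 for siE6 against siE8, adjusted p = 1.52e-06).

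COL1A1 (ENSG00000108821, chromosome 17, 50183289 to 50201632, minus strand) did not follow COL3A1. Its level was 21.0, 22.6 and 22.9 TPM in the 200 nM control and 27.2, 24.2 and 27.5 with the POLR3G siRNA, 1.33-fold higher with no overlap (log2 0.42 ± 0.050, adjusted p = 5.64e-05). With siE4 it was 5.15, 6.12 and 6.48 TPM against 20.5, 21.2 and 20.3, 2.78-fold lower (log2 -1.47 ± 0.086, adjusted p = 1.40e-08). With siE8 it stood at 21.4, 20.9 and 18.9 TPM, overlapping the control (log2 0.05 ± 0.0805). The direct difference of siE4 and siE8 was log2 -1.52 ± 0.086 (adjusted p = 5.21e-09). COL5A1, a chain of collagen V that starts fibrils, had a reverse order, falling 3.28-fold with siE8 (log2 -1.71 ± 0.10) and standing 4.23-fold higher with siE4 than with siE8 (log2 2.08 ± 0.10, adjusted p = 1.15e-09). COL2A1, the cartilage collagen, fell in all 5, from log2 -0.24 ± 0.071 with siE4 to -1.42 ± 0.074 with siE8.

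Of the 7 network-forming collagens 5 fell and 1 rose with the ASO, and 5 fell with the POLR3G siRNA. With siE4 2 fell and 1 rose, with siE6 2 fell, and with siE8 6 fell. The siE4 and siE6 falls were 28.6% each, where 28.7% and 31.8% of all genes fell. Collagen IV genes lie head to head in pairs. The RefSeq starts of COL4A1 and COL4A2 on chromosome 13 leave 126 bases between them, and those of COL4A6 and COL4A5 on chromosome X leave 379. COL4A1 was at 10.2, 11.2 and 9.75 TPM with the scrambled ASO and 8.15, 7.44 and 7.49 with the POLR3G ASO, and COL4A2 went from 16.6, 14.7 and 14.7 to 10.0, 9.55 and 9.61. Neither overlapped, and the changes were log2 -0.51 ± 0.051 and -0.84 ± 0.057. Both fell with siE8 (-0.92 ± 0.075 and -0.80 ± 0.068), and neither passed with siE4 (0.01 and 0.04) or siE6 (-0.12 and 0.03). With the POLR3G siRNA COL4A1 fell by 0.59 ± 0.030 on the log2 scale and COL4A2 by 0.15 ± 0.023.

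COL4A5 stood at 38.2, 43.5 and 41.0 TPM in the 200 nM control and 17.0, 18.5 and 20.8 with the POLR3G siRNA, 2.20-fold lower with no overlap (log2 -1.14 ± 0.022). COL4A6 went from 15.7, 14.5 and 14.8 TPM to 11.7, 13.9 and 15.3, overlapping groups (log2 -0.19 ± 0.042, a call lost with the length offset at adjusted p = 0.715). With siE6 COL4A6 fell from 14.9, 15.0 and 15.8 TPM to 7.97, 6.72 and 7.43 with no overlap (log2 -0.85 ± 0.060). COL4A5 was at 30.8, 29.3 and 38.2 TPM against 41.0, 34.2 and 35.1, which overlap, and its call (log2 -0.38 ± 0.080) was lost with the length offset, which gave log2 0.02 at adjusted p = 0.860. With the ASO and siE8 both genes fell, COL4A5 by 0.62 and 1.31 and COL4A6 by 0.85 and 0.92 on the log2 scale. COL4A6 was called higher with siE4 while its mean TPM was lower, and this call was lost with the length offset (adjusted p = 0.91). The difference between partners was not tested. COL8A1 of the vessel-wall collagen VIII behaved unlike the other network collagens, at 1.80, 1.70 and 1.93 TPM with the scrambled ASO and 5.18, 5.04 and 5.16 with the POLR3G ASO (log2 1.41 ± 0.080, adjusted p = 8.50e-07).

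**Figure D5:**
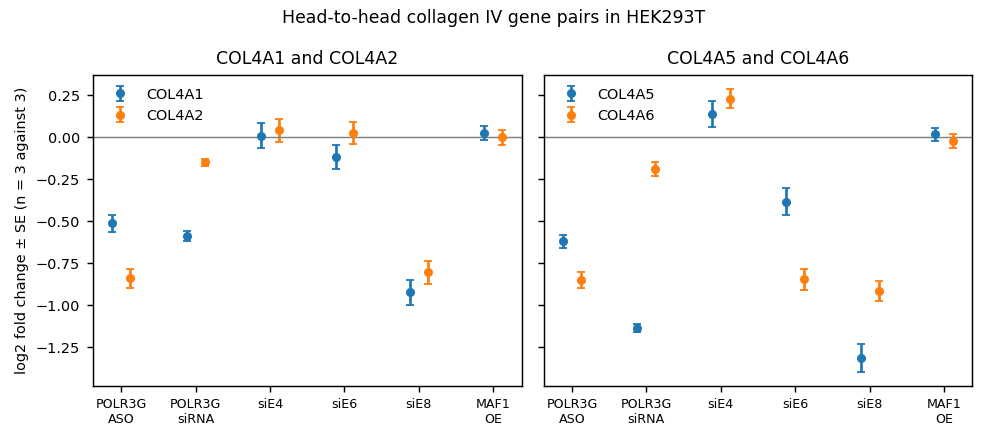
Points are log2 fold changes with SE (n = 3 against 3 libraries) for COL4A1 and COL4A2 on the left and COL4A5 and COL4A6 on the right, in 6 HEK293T comparisons on the x axis. COL4A5 and COL4A6 are at -1.14 and -0.19 with the POLR3G siRNA, -0.38 and -0.85 with siE6 and -1.31 and -0.92 with siE8, and all 4 genes lie near 0 with MAF1.

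Of the 14 other collagens, 8 fell and 3 rose with the ASO, 9 fell and 1 rose with the POLR3G siRNA, 7 fell and 3 rose with siE4, 10 fell and 2 rose with siE6, and 12 fell with none rising with siE8. COL13A1, a transmembrane collagen of the muscle-nerve junction, fell in all 5, most with the POLR3G siRNA (from 7.49, 7.52 and 8.43 to 2.28, 0.898 and 1.71 TPM, log2 -1.78 ± 0.17). COL14A1, a collagen bound to fibril surfaces, also fell in all 5, by 0.64 (siE4) to 1.69 (siE8) on the log2 scale. COL26A1 fell 3.80-fold with siE6 (log2 -1.93 ± 0.12), from 3.43, 5.08 and 3.37 to 0.903, 0.747 and 0.915 TPM. COL23A1, a further transmembrane collagen, fell 4.81-fold with the POLR3G siRNA (log2 -2.27 ± 0.65, adjusted p = 0.0114), but 1 of those libraries lists it at 0 and DESeq2 gave an adjusted p of 0.147.

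COL28A1 (ENSG00000215018, chromosome 7, 7356203 to 7535853, minus strand), a collagen of peripheral nerve, was at 1.32, 1.47 and 1.69 TPM with the scrambled ASO and 6.01, 5.70 and 5.81 with the POLR3G ASO. It rose 3.43-fold with no overlap (log2 1.78 ± 0.10, adjusted p = 1.08e-06) and passed the test in none of the other knockdowns. COL6A3, the alpha3 chain of collagen VI, went from 0.584, 0.683 and 1.02 to 2.15, 2.29 and 2.37 TPM with the ASO (log2 1.42 ± 0.16). It was the only one of the 68 that rose in 3 of the 5 knockdowns, with siE4 at log2 0.58 and siE6 at 0.74. Its partner chains COL6A1 and COL6A2 fell with the ASO (log2 -0.46 and -0.77). COL6A1 is among the more abundant members and was called higher with siE6 (log2 0.33 ± 0.074, adjusted p = 0.00179), at 56.4, 49.3 and 57.7 TPM against 55.9, 50.9 and 43.2 in the control, groups that overlap. Beside the ASO rises stands the rise of olfactory receptor reads in the same ASO libraries given above. So does a rise of 4 of the 5 THP-1 marker genes tested there. The summed level of 8 markers was 4.73 to 5.67 TPM with the scrambled ASO and 11.3 to 15.6 with the POLR3G ASO. Among the 8, the leukocyte marker PTPRC stayed at or under 0.012 TPM in every HEK293T group mean. The highest such mean was 7.33 TPM for LYZ and 2.24 for SPI1. The part of the olfactory receptor reads or of these markers in the ASO rises was not tested.

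DDR2 (ENSG00000162733, chromosome 1, 162631373 to 162787400, plus strand), the receptor for fibrillar collagens, fell in all 5 knockdowns. It was at 36.1, 33.8 and 35.7 TPM with the scrambled ASO and 20.6, 21.3 and 18.3 with the POLR3G ASO (2.06-fold, log2 -1.04 ± 0.043, adjusted p = 1.61e-07). With the POLR3G siRNA it fell from 32.3, 32.6 and 31.6 to 10.4, 9.64 and 11.2 TPM (2.87-fold, log2 -1.52 ± 0.030, adjusted p = 8.23e-10). The 25 nM control stood at 31.9, 33.3 and 30.6 TPM, siE4 at 15.4, 16.4 and 16.8, siE6 at 14.4, 12.8 and 15.8, and siE8 at 22.0, 20.2 and 20.0. All 15 knockdown libraries lay below their controls, and log2 changes with the POLR3GL siRNAs were -0.81, -0.94 and -0.60. DDR1, the epithelial collagen receptor, fell with the POLR3G siRNA (log2 -0.81 ± 0.13) and siE8 (-0.63 ± 0.21) and did not pass with the ASO, siE4 or siE6 (-0.37, 0.28 and -0.07). Its siE8 call was lost without control replicate 2 (adjusted p = 0.0956), without siE8 replicate 1 (0.0881) and without siE8 replicate 3 (0.0609).

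Of the 7 MMP genes 4 fell with the ASO and 4 with the POLR3G siRNA (57.1% each, where 34.1% and 38.1% of all genes fell). The count was 3 with siE4, 2 with siE6 and 3 with siE8 (42.9%, 28.6% and 42.9%, against 28.7%, 31.8% and 28.6% of all genes). With the ASO, the POLR3G siRNA and siE6 1 MMP gene rose each. MMP2 (ENSG00000087245, chromosome 16, 55389700 to 55506691, plus strand), the gelatinase that cuts collagen IV, fell with all POLR3GL siRNAs. Its control stood at 8.08, 8.57 and 7.29 TPM, siE4 at 2.38, 2.27 and 2.47, siE6 at 1.27, 1.08 and 1.79, and siE8 at 3.06, 2.92 and 2.01. The groups did not overlap, and the falls were 3.02-fold (log2 -1.60 ± 0.094), 5.87-fold (-2.55 ± 0.099) and 3.68-fold (-1.88 ± 0.095). With the POLR3G siRNA MMP2 was at log2 -0.03 ± 0.058, which did not pass, and with the ASO it fell (-0.79 ± 0.11). MMP15, a membrane-type protease, fell 3.18-fold with siE4 (log2 -1.67 ± 0.075) and rose 1.38-fold with siE6 (0.46 ± 0.069), and the direct difference was log2 -2.13 ± 0.075 (adjusted p = 8.13e-11). MMP14 rose with the ASO alone among the knockdowns (log2 0.80 ± 0.25, adjusted p = 0.0169), and not without ASO replicate 3 (adjusted p = 0.0560).

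Among the 11 ADAMTS genes 6 fell and 2 rose with the ASO, and 6 fell and 5 rose with the POLR3G siRNA. Those that rose with the siRNA were ADAMTS1, ADAMTS5, ADAMTS9, ADAMTS15 and ADAMTS20, all of them proteases known to cut the proteoglycans versican or aggrecan. ADAMTS5 rose from 0.663, 0.642 and 0.638 to 1.56, 1.497 and 1.87 TPM (2.69-fold, log2 1.43 ± 0.093, adjusted p = 8.85e-07), with no overlap. ADAMTS1, the most abundant, rose from 43.3, 49.7 and 45.3 to 78.2, 64.5 and 85.6 TPM (1.81-fold, log2 0.85 ± 0.076). With siE6 10 of the 11 fell, with siE8 8 fell and 1 rose, and with siE4 5 fell and 3 rose. ADAMTS17 and ADAMTS19 fell in all 5. ADAMTS19 was called with the ASO at adjusted p = 0.0433, a call lost in 9 alternatives beside the stricter threshold (adjusted p = 0.0501 to 0.163).

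The inhibitors TIMP1, TIMP2 and TIMP3 fell with the ASO, the POLR3G siRNA and siE8. TIMP3 (ENSG00000100234, chromosome 22, 32801701 to 32863043, plus strand), which binds to the matrix, was at 25.1, 27.8 and 26.0 TPM in the 25 nM control, 26.8, 30.6 and 29.9 with siE4, 17.8, 15.6 and 18.1 with siE6, and 9.51, 9.08 and 8.71 with siE8. Only siE4 overlapped with the control. TIMP3 fell 2.86-fold with siE8 (log2 -1.51 ± 0.054, adjusted p = 1.25e-10), fell with siE6 (-0.41 ± 0.051) and rose with siE4 (0.34 ± 0.051). TIMP2 fell most with siE4, from 29.1, 30.6 and 29.6 to 9.16, 9.73 and 10.3 TPM (2.71-fold, log2 -1.44 ± 0.044). TIMP1 (chromosome X) fell in all 5 by 0.19 to 0.46 on the log2 scale, and its siE6 call was lost with DESeq2 (adjusted p = 0.0544), with the other libraries in the fit (0.0609) and without control replicate 2 (0.145) or siE6 replicate 1 (0.0773) or 2 (0.0680).

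The rule for naming genes took up 15 that were called lower in each of the 5 knockdowns, namely COL2A1, COL3A1, COL5A2, COL11A1, COL6A2, COL9A3, COL13A1, COL14A1, LAMB1, LAMC1, SPARC, ADAMTS17, ADAMTS19, TIMP1 and DDR2. The 3 POLR3GL comparisons share their control, so nothing is read from this number. Of the 15, the length offset removed calls of ADAMTS17 and ADAMTS19 (ASO), COL2A1 (siE4), COL6A2 (siE4 and siE6), COL11A1 (siE4 and siE8) and COL13A1 (siE8). Single libraries also decided some of them. The siE4 call of COL2A1 was lost without replicate 1 of the control or of siE4 (adjusted p = 0.0510 and 0.0527), and that of COL11A1 without siE4 replicate 1 (0.0572). The calls of COL6A2 were lost without control replicate 1 or 2 or siE4 replicate 1 for siE4 (0.0569 to 0.0916), and without control replicate 2 or siE6 replicate 2 for siE6 (0.0663 and 0.0713).

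The agents against POLR3G were compared by the difference of their responses, each against its own control. It was higher for the ASO in 26 of the 68 genes and lower in 17, where 33.8% and 33.0% of all genes were called. Both agents lowered 42 of the 68 (61.8%), where both lowered 20.6% of the 15228 genes tested with each. Opposite calls were made for 7 (10.3%, against 17.8%). ADAMTS1 was called higher with both (1.47%, against 13.6%), but its ASO call (log2 0.17 ± 0.059, adjusted p = 0.0270) was lost in 8 alternatives beside the stricter threshold (0.05152 to 0.272), among them the length offset and the fits without replicate 1 or 3 of either ASO group. COL25A1, a neuronal transmembrane collagen, fell with the ASO (log2 -0.97 ± 0.051) and rose with the siRNA (0.19 ± 0.028), a difference of -1.19 ± 0.060 (adjusted p = 1.34e-09). COL1A1, MMP16 and ADAMTS9 had the same signs, with differences of -0.81, -0.96 and -0.86. ADAMTS6 and COL7A1 were higher with the ASO and lower with the siRNA, with differences of 1.06 and 0.77, and the ADAMTS6 rise was lost with the length offset (adjusted p = 0.1935). The COL7A1 calls were lost with DESeq2 (adjusted p = 0.123 for the ASO and 0.0829 for the siRNA). They were also lost without any 1 of 5 libraries for the ASO, all but scrambled replicate 2, and without any 1 of 4 for the siRNA, and the difference was lost without ASO replicate 3 or scrambled replicate 1 or 3 (adjusted p = 0.0508 to 0.0571).

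The 3 POLR3GL siRNAs share their target gene and were compared directly. Against siE8, siE4 had 40 genes higher and 8 lower (30.5% and 32.4% of all genes), and siE6 had 32 higher and 19 lower (32.1% and 32.1%). Between siE4 and siE6, 32 were higher with siE4 and 11 lower (32.2% and 32.6%). Among the long coding genes described above, 48.1% were higher and 26.2% lower for siE4 against siE8, where the 68 had 58.8% and 11.8%. For siE6 against siE8 the long genes had 37.6% and 35.3%, and the 68 had 47.1% and 27.9%. For siE4 against siE6 they had 47.6% and 27.75%, and the 68 had 47.1% and 16.2%. The share higher in this last comparison was thus near that of long genes. TIMP3 had the smallest adjusted p of siE4 against siE8, 3.61-fold higher with siE4 (log2 1.85 ± 0.054, adjusted p = 1.62e-11). COL6A1 was lower with siE4 than with siE8 (log2 -0.73 ± 0.076) or siE6 (-1.24 ± 0.076). COL7A1, the anchoring fibril collagen, was 3.65-fold higher with siE4 than with siE6 (log2 1.87 ± 0.18).

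The summed level of fibroblast markers was lower in some of these comparisons. In the HEK293T controls it was mostly that of LUM (7.82 TPM), with PDGFRA next (1.03 TPM). Their summed level over 7 genes, led by LUM, was 13.0 to 16.5 TPM in the 200 nM control libraries and 5.09 to 5.14 with the POLR3G siRNA, and 13.5 to 14.6 in the 25 nM control against 4.33 to 9.16 over the 9 POLR3GL siRNA libraries. It was 5.78 to 6.56 with the scrambled ASO and 5.86 to 5.89 with the POLR3G ASO. Of 6 markers tested, 2 fell and 1 rose with the ASO, 2 fell with the POLR3G siRNA, 4 with siE4, 5 with siE6 (1 rose) and 4 with siE8. The shares of all genes that fell were 34.1%, 38.1%, 28.7%, 31.8% and 28.6% in that order. FAP, which marks activated fibroblasts, had a mean of 0.018 TPM in controls. In bulk RNA fewer cells of a type and less RNA per cell cannot be told apart, and the part of these markers in the results was not tested.

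MAF1 overexpression changed none of the 68 genes in edgeR's test, where 0.0386% of all genes were called. At an unadjusted p under 0.05 there were 7, and DESeq2 called 1, DDR2. It was at 18.7, 18.8 and 19.9 TPM with eGFP and 21.9, 22.5 and 22.3 with MAF1, without overlap (log2 0.23 ± 0.033, adjusted p = 0.173). SPARC stood at 87.7, 91.8 and 90.4 TPM with eGFP and 96.0, 94.99 and 90.4 with MAF1, and LAMC1 at 79.7, 76.7 and 79.5 against 76.1, 80.0 and 82.1. The median log2 change of the 68 genes was 0.02.

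In THP-1, 51 of the 68 genes entered the tests. ML-60218 raised 5 and lowered 2, where 8.48% and 7.05% of all genes rose and fell. TIMP3 rose from 80.2, 82.1 and 78.0 TPM with DMSO to 115, 125 and 112, 1.49-fold with no overlap (log2 0.57 ± 0.053, adjusted p = 2.82e-05). TIMP1 (log2 0.17 ± 0.039) and MMP14 (0.21 ± 0.043) also rose, from 228 to 251 and from 151 to 173 TPM, and the TIMP1 call was lost without ML-60218 replicate 2 (adjusted p = 0.0541). LAMC1 was called higher (log2 0.11 ± 0.028, adjusted p = 0.0194) with overlapping TPM values, a call lost with the length offset (adjusted p = 0.548) and without DMSO replicate 3 or ML-60218 replicate 1 or 2 (0.0612 to 0.0800). COL9A3 fell (log2 -0.37 ± 0.088, adjusted p = 0.0116, and 0.0507 without DMSO replicate 1), and COL4A1 fell by 0.21 ± 0.057 at adjusted p = 0.0277, a call lost in 8 alternatives beside the stricter threshold (adjusted p = 0.05105 to 0.469), among them each fit without DMSO replicate 1 or 2 or any ML-60218 replicate. COL21A1 had the largest rise (log2 1.76 ± 0.35) at 0.209 TPM, under the 1 TPM set for naming, and is given because the heat map shows it.

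CHX lowered 24 genes and raised 6, where 32.5% and 33.5% of all genes fell and rose. It shares the DMSO libraries with the ML-60218 comparison. TIMP3 fell from 80.2, 82.1 and 78.0 to 52.1, 44.3 and 49.3 TPM, 2.07-fold with no overlap (log2 -1.05 ± 0.054, adjusted p = 2.25e-09), and TIMP1 and TIMP2 fell as well (-0.45 ± 0.040 and -0.58 ± 0.031). The mean level of TIMP1 went from 228 to 210 TPM, a smaller change than the fitted one. COL4A1 fell from 5.19, 4.93 and 5.14 to 2.14, 2.10 and 2.60 TPM (3.56-fold, log2 -1.83 ± 0.061) and COL4A2 from 2.20, 2.08 and 2.03 to 1.68, 1.23 and 1.45 (log2 -0.87 ± 0.093). COL9A2, the most abundant, fell from 658, 664 and 664 to 490, 515 and 483 TPM (log2 -0.77 ± 0.029, adjusted p = 1.39e-10). ADAMTS6 rose from 0.219, 0.434 and 0.272 to 1.68, 1.49 and 2.24 TPM (log2 1.77 ± 0.13, adjusted p = 6.72e-08). MMP14 was called lower on counts (log2 -0.19 ± 0.043) while its mean TPM was higher, 181 against 151, so its direction depends on the scale. With the length offset its call was lost (log2 -0.06, adjusted p = 0.204).

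With CHX present, ML-60218 raised 5 genes and lowered 7, where 8.75% and 7.75% of all genes rose and fell. Without CHX replicate 1, without ML-60218 with CHX replicate 1 or without its replicate 3 the total was 7. TIMP3 rose from 52.1, 44.3 and 49.3 TPM with CHX to 76.9, 78.9 and 79.9, 1.67-fold with no overlap (log2 0.74 ± 0.054, adjusted p = 5.02e-06). COL4A1 (log2 -0.36 ± 0.064) and COL9A3 (-0.39 ± 0.087) fell, as did MMP25 (-0.37 ± 0.085), a membrane-anchored leukocyte protease. The response to ML-60218 differed with CHX in 3 genes, each lower with CHX, where the interaction was called lower for 3.70% and higher for 2.86% of all genes. MMP14 went from 151, 156 and 146 to 166, 178 and 176 TPM without CHX and from 180, 174 and 189 to 169, 160 and 156 with it, an interaction of log2 -0.30 ± 0.060 (adjusted p = 0.0131).

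Other genes that make, modify or sense the matrix were counted from fixed lists, to be read against the shares of all genes that fell and rose, which were 34.1% and 34.4% with the ASO, 38.1% and 36.8% with the POLR3G siRNA, 28.7% and 26.2% with siE4, 31.8% and 31.2% with siE6, and 28.6% and 29.1% with siE8. Of the integrin subunits, the main matrix receptors, 11 fell and 9 rose of 23 tested with the ASO, 13 fell and 5 rose of 20 with the POLR3G siRNA, 10 and 4 with siE4, 10 and 3 with siE6, and 14 and 0 with siE8. ITGB1, the shared beta1 subunit, fell with siE8 from a mean of 158 to 70.6 TPM (log2 -1.14 ± 0.044, adjusted p = 2.04e-10), and ITGA6, a laminin receptor subunit, from 22.2 to 6.93 TPM (-1.72 ± 0.067). With the ASO the integrin subunit ITGAM, a myeloid marker, rose from 0.280 to 4.82 TPM (log2 3.96 ± 0.15). Of 28 genes of collagen processing, 19 fell and 1 rose with the ASO and 20 fell and 3 rose with the POLR3G siRNA, among them the collagen chaperone SERPINH1 (from 70.2 to 37.4 TPM, log2 -0.77 ± 0.027). Fewer fell with siE4 (11, with 3 rising), siE6 (10, with 9 rising) and siE8 (12, with 6 rising), a difference that was not tested.

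Of 10 other matrix receptors, 9 fell and 1 rose with the ASO, and 5 fell and 2 rose with the POLR3G siRNA. The syndecans SDC2 and SDC3 fell with both of these agents. With siE4 5 fell and 4 rose, and with siE6 and siE8 4 fell and 4 rose each. TGF-beta signalling is a known inducer of matrix genes, and of its listed genes 9 fell and 6 rose of 18 with the ASO, 7 and 7 of 17 with the POLR3G siRNA, 6 and 4 with siE4, 10 and 3 with siE6, and 11 and 2 with siE8. TGFBR3, the type III receptor, fell with siE8 from 23.1 to 6.80 TPM (log2 -1.73 ± 0.045) and with siE6 to 10.4 TPM (-0.91 ± 0.043). SMAD7, an inhibitor of the pathway, rose with the ASO (log2 0.75 ± 0.057) and the POLR3G siRNA (0.68 ± 0.043) and fell with siE8 (-0.78 ± 0.058). In THP-1 TGFB1 rose with ML-60218 from 48.3 to 69.7 TPM (log2 0.55 ± 0.049). MAF1 overexpression changed no gene of these 4 lists.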

How the data were processed

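The submitters' processing notes name bcl2fastq 2.20, Trim Galore, Salmon, DESeq2 and the build hg38; other versions and the annotation were not given in the sources used here. What the authors deposited is, per the file headers, an estimated count and a TPM value for 194142 transcripts in 42 libraries. Identifiers without version matched GENCODE release 29 for 158359 transcripts (81.6%), and the unmatched ones, with 8.06% to 9.54% of the 32705684 to 52568088 reads per library, were left out. Promoter windows on chromosome 8 were left out. Estimated counts were summed per gene, rounded and fitted with edgeR 4.0.16 (filterByExpr, TMM, quasi-likelihood F-test, Benjamini-Hochberg over all genes tested, calls at adjusted p under 0.05), each experiment by itself, and the ASO and siRNA responses together over their 12 libraries. The test was tried on simulated data. TPM was summed per gene for levels, without the TMM normalization of the fitted counts, so changes in TPM and fitted log2 changes can differ. The 68 genes and all lists were chosen with earlier results of these data known. Named genes are COL4A1, COL4A2, FN1, SPARC, HSPG2, NID1, NID2, DDR1, DDR2, LAMA5, LAMB1, LAMC1 and the TIMPs, then per comparison up to 5 called rises and 5 called falls at 1 TPM or more without overlap, genes called in 1 direction in at least 5 of the 6 HEK293T comparisons, genes with opposite POLR3G calls, interaction genes and up to 3 called genes of each other list; LAMA1, LAMB2, COL4A5 and a few more were added for their role after values were seen. Salmon splits reads of near-identical transcripts by estimation, so overlapping or similar genes are less certain. Alternatives were DESeq2 1.42.0, its size factors, no filter, a mean of 5 CPM, an adjusted p under 0.01, a length offset, a replicate block, other libraries in the fit, removal of 86 genes with erratic zeros (MMP11 among the 68), other membership rules and each library left out. The depth per library limits precision mainly for genes under 1 TPM. Of the 68 genes 1 is counted but not reported by itself here.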

Additional observations from a re-analysis of the deposited data

Results flagged for a closer look

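The response to ML-60218 differed between THP-1 cells without and with CHX for 3 of the 51 genes that entered the tests. This was by edgeR's interaction test with n = 3 libraries in each of 4 groups. The share was 5.88%, where 6.56% of all genes tested were called, so nothing is read from the count. For ADAMTS15 the difference was log2 -0.86 (adjusted p = 0.0163), with levels of 3.04, 2.90 and 2.92 TPM in DMSO, 3.45, 4.38 and 3.54 with ML-60218, 3.28, 2.25 and 2.81 with CHX and 2.19, 1.74 and 1.95 with both. For COL9A2 it was log2 -0.18 (adjusted p = 0.0214), with means of 662, 637, 496 and 419 TPM in that order, and the call was lost without ML-60218 replicate 1 (adjusted p = 0.0578) or replicate 2 (0.0534), and with no filter on low counts (0.0609). For MMP14 it was log2 -0.30 (adjusted p = 0.0131), with means of 151, 173, 181 and 162 TPM.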

How the results depend on the processing

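Of 219 results of genes that the naming rule took up, 184 kept direction and call under every alternative run and 35 lost a call under at least 1, while none reversed. Over all 502 calls among the 68 genes, direct comparisons included and the stricter threshold aside, 112 were lost under at least 1 alternative, 76 of them with the length offset, which turned the sign of 5 while leaving them without a call. MAF1 overexpression had 1 gene called with DESeq2 and 1 without the filter on low counts, against 0. For ML-60218 the count of 7 became 3 at an adjusted p under 0.01 and ranged from 4 to 7 with single libraries left out (4 without ML-60218 replicate 2). For CHX the count of 30 became 18 of 22 tested with a mean of 5 CPM. For ML-60218 with CHX the count of 12 became 6 at an adjusted p under 0.01 and 7 to 9 with single libraries left out, and the interaction count of 3 became 0 at an adjusted p under 0.01. Under the length offset the counts were 48 for the ASO, 57 for the POLR3G siRNA, 36 for siE4, 43 for siE6 and 47 for siE8, each within 1.5 times the original. The replicate block gave 57, 58, 41, 49 and 56 genes in the 5 knockdowns in that order, 0 for MAF1, 7 for ML-60218, 29 for CHX, 11 for the combined treatment against CHX, and 3 in the interaction test. Correlations between same-numbered libraries were low (-0.23 to 0.23), so the numbers are not taken as pairs. All 3 were positive with CHX against DMSO (0.134, 0.106 and 0.0629) and with MAF1 (0.0452, 0.0404 and 0.0799), and a pairing there was not tested further. The cause of the lost calls was not tested, save that the stricter threshold and the 5 CPM minimum admit fewer genes. Genes under 1 TPM are limited by depth.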
